A study of Mus musculus with 24 samples.

Results

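The cells that did not carry the reporter in oculomotor and spinal cultures of mouse embryonic stem cells make up 12 of the 24 samples of the series. They were chosen by the group in the sample labels, which gives 6 oculomotor (OMN) and 6 spinal cord (SC) GFP-negative samples, written here as OMN 1 to 6 and SC 1 to 6. OMN cultures came from an Islet1-GFP line in which the nestin enhancer, active in neural progenitors, also drove Phox2a, and were patterned for 5 days with 250 nM of the Smoothened agonist SAG and 100 ng/ml FGF8. SC cultures came from an Hb9-GFP line and were patterned for 5 days with 500 nM SAG and 100 nM retinoic acid. The line, the reporter and the factors changed together, so their shares in a difference cannot be told apart. GFP-positive and GFP-negative cells were then sorted, and each sample was a SMART-seq2 library of poly(A) RNA without molecular identifiers. A GFP-negative sample is a mixture defined by the absence of a motor neuron reporter, not by a marker of its own, and in such bulk samples fewer cells of a type and less RNA per cell cannot be told apart. Levels are given in RPKM, reads scaled to transcript length and to the reads of the sample.

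Along the neural tube, the transcription factor Otx2 marks forebrain and midbrain, FGF8 is made at the isthmus between midbrain and hindbrain, and retinoic acid switches on Hox genes in the hindbrain and spinal cord. Hox genes are numbered in their clusters so that genes of low number begin further forward and genes of high number further back, a relation used to read a cell's position along the axis. Sonic hedgehog, the signal that SAG replaces, sets ventral identities, among them floor plate and motor neuron progenitors. The comparison asks which of these regional programmes, and which other lineages, the patterning left in the cells outside the reporter.

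The sort label held for the reporter genes in most samples. Isl1, the gene behind the OMN reporter, lay between 0.696 and 1.87 RPKM in OMN GFP-negative samples and between 141 and 369 RPKM in OMN GFP-positive ones. Mnx1, which encodes Hb9, lay between 0.189 and 4.72 RPKM in SC 1, 2, 3, 5 and 6, against 43.1 to 149 RPKM in SC GFP-positive samples, whereas SC 4 held 69.4 RPKM. A pair of SC samples therefore stood apart. In SC 2 the gene models Gm10800, Gm10801 and Gm21738 reached 383826, 102611 and 79684 RPKM, and SC 4 had the Mnx1 level of a GFP-positive sample. Counts over all genes, and results of a part of the lists and genes, are given with and without them.

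Of 22179 genes tested, 213 (0.960%) differed between the groups at an adjusted p under 0.05 in limma, 91 of them higher in OMN (0.410%) and 122 higher in SC (0.550%). Such genes are said to pass below. The fit took its spread from all 24 samples of the series, and 76 genes passed in a fit of the 12 samples alone. At an unadjusted p under 0.05 there were 2500 genes (11.3%), the share against which the unadjusted counts of each list can be read. Differences are OMN minus SC on the scale log2(RPKM + 1), and their median over all genes was -0.04. The 6 values of one group lay entirely above the 6 of the other in 281 genes (1.27%), 88 with OMN above (0.397%) and 193 with SC above (0.870%), and in 105 of the 213. SC 4 was the sample most often inside the range of the other group: 45 of the 67 overlapping genes that passed with SC higher had separate groups once SC 4 was left out, and 14 of the 41 with OMN higher. Without SC 2, 65 genes passed with OMN higher (0.306%) and 136 with SC higher (0.639%), and 161 of the 213 were among them. Without SC 4 the counts were 182 (0.827%) and 262 (1.19%), with 208 of the 213 among them, and without both 129 (0.612%) and 292 (1.39%), with 180 shared. In the 4 samples per group of replicates 1 to 4 they were 22 (0.105%) and 17 (0.0812%), and in replicates 5 and 6, which had more reads, 119 (0.638%) and 180 (0.965%). Leaving out a single sample moved the total of 213 by more than 1.5 times in 5 cases: 115 without OMN 2, 130 without OMN 4, 141 without OMN 6, 128 without SC 6 and 444 without SC 4. No gene of the 213 changed sign in any of these fits. Of 56 genes that passed and were followed singly, 22 missed the threshold in a fit of the 12 samples alone, 31 with the replicate number as a block in these samples, 0 with that block in all 24 samples and 42 in replicates 1 to 4. Without SC 2 and SC 4, 6 missed it, among them Hoxa3 (adjusted p = 0.0522), Hoxd4 (0.0677), Aldh1a3 (0.0569) and Car4 (0.0999). Of the 576 genes tested from the lists used below, 10 passed with OMN higher and 29 with SC higher, against 8 and 27 without SC 2, 21 and 44 without SC 4, 16 and 41 without both, 3 and 8 in replicates 1 to 4 and 23 and 37 in replicates 5 and 6. The balance of the directions depended on the scaling of the samples. It was 151 to 133 (OMN to SC) with median-ratio scaling and 54 to 244 with sums made equal after leaving out the Gm models and mitochondrial genes, a scaling that moved the median of all genes to -0.14.

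Among the regional lists, the Hox genes had most genes that passed. Of 33 Hox genes tested, 10 passed with SC higher and none with OMN higher, the median difference was -0.61, and the groups did not overlap in 12. The count of 10 was 9 without SC 2, 10 without SC 4, 9 without both, 4 in replicates 1 to 4 and 7 in replicates 5 and 6. By position in the clusters, 6 of the 7 genes of paralog groups 4 and 5 passed and 7 had an unadjusted p under 0.05 (median -3.01), as did 2 and 6 of the 8 in groups 1 to 3 (median -1.01) and 2 and 5 of the 11 in groups 6 to 9 (median -0.58). Whether these groups of genes differ from each other was not tested. In groups 10 to 13, the most posterior, 0 of 7 passed in limma and 0 had an unadjusted p under 0.05. The summed level of groups 4 and 5 was 12.4 RPKM in OMN 1, 4.59 in OMN 3, 1.44 in OMN 4 and 0.406 to 0.525 in the other OMN samples, against 60.6 to 345 RPKM in SC. Groups 6 to 9 summed to at most 3.04 RPKM in OMN and to between 18.7 and 125 RPKM in SC. For both sums every SC sample, SC 2 and SC 4 included, lay above every OMN sample.

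Hoxb5 (chr11:96303336-96306121) was the most clearly separated of them. Its level was 0 to 0.125 RPKM in OMN (median 0.0793) and 16.5, 18.9, 28.1, 36.7, 76.3 and 94.4 RPKM in SC 5, 6, 4, 2, 1 and 3, a difference of -5.14 ± 0.50 (SE; adjusted p = 2.15e-06). It held in every fit that left out 1 sample, with adjusted p from 2.51e-06 to 1.37e-05. Hoxa5 ran from 0.0858 to 9.73 RPKM in OMN (median 0.363) and from 16.5 to 97.7 RPKM in SC (median 30.3), with a difference of -4.34 ± 0.77 and adjusted p = 0.00446. OMN 1, at 9.73 RPKM, was far above the other OMN samples, which stayed under 1 RPKM, and still below each SC sample. Hoxb6, of a more posterior group, was listed at 0 in 5 OMN samples and at 0.0820 RPKM in OMN 6, with 5.99 to 55.5 RPKM in SC (difference -4.17 ± 0.57, adjusted p = 0.00036). Hoxb7 was likewise at 0 in 5 OMN samples and at 1.83 to 17.2 RPKM in SC (adjusted p = 0.0148), Hoxc5 at 0 in 5 and at 1.00 to 8.16 RPKM in SC (adjusted p = 0.0049). Hoxd3 was at 0 in 4 OMN samples and at most 0.416 RPKM in the others, and at 2.10 to 16.2 RPKM in SC (adjusted p = 0.00144). These genes passed in each of the 12 fits without 1 sample, while in replicates 1 to 4 Hoxa5, Hoxb7 and Hoxc5 missed the threshold (adjusted p = 0.143, 0.39 and 0.0896).

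The other Hox genes that passed did so less firmly. Hoxc4 (0 to 3.13 RPKM in OMN, 5.10 to 32.1 in SC, difference -3.01 ± 0.63, adjusted p = 0.0178) was lost without OMN 2 (adjusted p = 0.0503) and in replicates 1 to 4 (0.0929). Hoxb4 (0 to 0.408 RPKM in OMN, 1.92 to 34.2 in SC, adjusted p = 0.0272) passed in 6 of the 12 fits without 1 sample and was lost without OMN 2, 4, 5 or 6 or SC 1 or 3, the adjusted p running from 0.0185 to 0.0682, and with the block in the 12 samples it was 0.0645. Hoxd4 was listed at 0 in all 6 OMN samples and at 0.673 to 74.8 RPKM in SC (adjusted p = 0.0498). It passed only without SC 4 or SC 5 among those 12 fits, with adjusted p from 0.0226 to 0.106, and its annotated span overlaps that of Hoxd3, so reads of the shared part cannot be told apart. Hoxa3 (0 to 3.21 RPKM in OMN, 3.64 to 12.4 in SC, adjusted p = 0.0461) passed only without OMN 1, SC 4 or SC 5, with adjusted p from 0.023 to 0.102. Although the call was fragile, the groups of each of these 4 genes did not overlap. Hoxb5os, a transcript on the opposite strand that overlaps Hoxb5, was at 0 in every OMN sample and at 1.70 to 85.9 RPKM in SC (adjusted p = 0.00267). It missed the threshold in replicates 1 to 4 (0.07) and with the replicate number as a block in the 12 samples (0.0726), and since the library type does not keep strand, its reads and those of Hoxb5 cannot be told apart. In the list of other hindbrain and caudal factors, 1 of 14 passed and 3 had an unadjusted p under 0.05 (median -0.60). This was Tshz1, a zinc finger factor of the trunk, at 2.11 to 3.02 RPKM in OMN and 4.24 to 37.6 in SC (difference -2.11 ± 0.44, adjusted p = 0.0181, 0.0524 without SC 1, 0.0524 in the 12 samples alone, 0.07 in replicates 1 to 4 and 0.0837 with the block). The nuclear receptor gene Nr2f1, the most abundant of that list, overlapped between the groups (6.55 to 71.1 RPKM in OMN and 8.32 to 257 in SC, adjusted p = 0.602).

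Otx2 (chr14:48657677-48673819) showed the opposite pattern. Its level was 8.84, 15.1, 19.2, 23.5, 29.1 and 32.2 RPKM in OMN 3, 1, 4, 2, 6 and 5, while SC 1, 3 and 6 were at 0, SC 5 at 0.0417, SC 2 at 0.174 and SC 4 at 0.9 RPKM. The groups were separate by a wide margin, with a difference of 4.17 ± 0.33 (adjusted p = 4.83e-08), 3.78 in replicates 1 to 4 and 4.95 in replicates 5 and 6. In GFP-positive cells Otx2 was low in both cultures (0.208 to 1.62 RPKM in OMN, 0 to 1.73 in SC, difference 0.31), and the difference between the cultures was larger in GFP-negative cells by 3.86 ± 0.46 (interaction, adjusted p = 5.01e-05). Of the 17 midbrain and isthmus factors, 2 passed, both with OMN higher, and 7 had an unadjusted p under 0.05 (median 0.15). The count was 2 without SC 2, 4 without SC 4 (with En1 and Fgf17 added), 2 without both, 1 in replicates 1 to 4, where the median was -0.01, and 7 in replicates 5 and 6, where it was 1.08. Their summed level was 30.4 to 113 RPKM in OMN and 6.12 to 25.5 in SC, with SC 4 the highest SC sample.

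The other factor to pass was Fgf15, a growth factor gene of the embryonic midbrain and hindbrain, with 0.678 RPKM in OMN 5, 2.51 to 20.8 in OMN 2, 3, 4 and 6 and 43.3 in OMN 1, against 0 to 0.772 in SC (difference 2.87 ± 0.65, adjusted p = 0.0296). OMN 5 overlapped SC 2. Fgf15 passed without OMN 3, 5 or 6 or SC 2 or 4 and was lost in the other 7 fits without 1 sample (adjusted p from 0.00605 to 0.0815). It was also lost in the 12 samples alone (adjusted p = 0.098), in replicates 1 to 4 (0.103) and with the replicate number as a block in the 12 samples (0.11). En1, which marks midbrain and anterior hindbrain, did not pass (adjusted p = 0.0734). It was at 28.5 and 33.2 RPKM in OMN 5 and 6, at 0.131 to 5.45 in OMN 1 to 4, at 1.79 in SC 4 and at 0 to 0.0540 in the other SC samples, and of the 12 fits without 1 sample it passed in those without OMN 1 or SC 4 (adjusted p from 0.0176 to 0.174). Fgf8, the gene of the factor added to the OMN cultures, lay between 1.04 and 4.94 RPKM in OMN and between 0 and 0.875 in SC, with separate groups and adjusted p = 0.076. The isthmus factors En2, Pax2, Pax5 and Pax8 did not exceed 1.13 RPKM in any of the 12 samples. Gbx2, which sits on the hindbrain side of the isthmus, overlapped (1.12 to 21.4 RPKM in OMN, 0 to 10.2 in SC, adjusted p = 0.597). Among 19 forebrain factors 1 passed and 6 had an unadjusted p under 0.05 (median 0.11), against 0 passing in replicates 1 to 4, 4 in replicates 5 and 6 and 0 with equal sums. It was Six3, an anterior forebrain gene, at 0.256 to 1.36 RPKM in OMN and 0 to 0.244 in SC (difference 0.76 ± 0.16, adjusted p = 0.0188), lost without OMN 2 (0.058) or OMN 4, in the 12 samples alone (0.114), in replicates 1 to 4 (0.472) and with the replicate number as a block in the 12 samples (0.176).

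**Figure D1:**
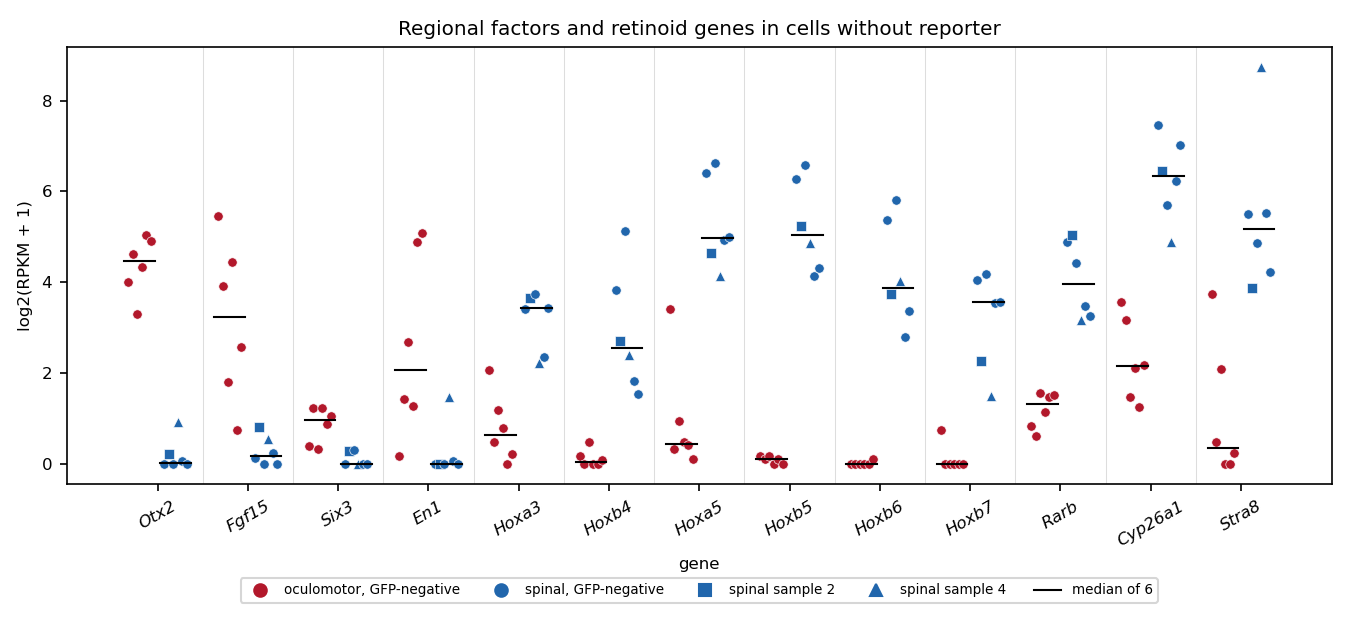
Level of 13 regional and retinoid genes in each GFP-negative sample as log2(RPKM + 1), with OMN in red and SC in blue, SC 2 as a square, SC 4 as a triangle and the median of 6 samples as a bar. Otx2 lies between 8.84 and 32.2 RPKM in OMN and at or below 0.9 RPKM in SC, and Hoxb5 at or below 0.125 RPKM in OMN and between 16.5 and 94.4 RPKM in SC.

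Retinoic acid acts through nuclear receptors that bind paired half-sites in DNA, and cells respond by making the receptor RARβ and the enzymes that clear the signal. Of 23 genes of the retinoic acid pathway and its targets, 6 passed with SC higher and 1 with OMN higher, and 10 had an unadjusted p under 0.05, with a median of -0.61. The 6 were also 6 without SC 2, 7 without SC 4 and 6 without both, and 1 in replicates 1 to 4, Rarb. Rarb, the receptor gene, lay between 0.541 and 1.96 RPKM in OMN (median 1.499) and between 7.99 and 31.7 RPKM in SC (median 15.4), a difference of -2.85 ± 0.40 with adjusted p = 0.000486. SC 4, 5 and 6 were the lowest SC samples and all lay above OMN. Cyp26a1, whose enzyme degrades retinoic acid, ran from 1.403 to 10.9 RPKM in OMN (median 3.44) and from 28.8 to 176 RPKM in SC (median 79.9, difference -4.00 ± 0.56, adjusted p = 0.000485). Its relative Cyp26b1 ran from 0.0644 to 5.02 RPKM in OMN and from 6.55 to 78.7 in SC (adjusted p = 0.0107). Dhrs3, a retinaldehyde reductase gene, lay at 0 in OMN 4 and between 0.716 and 1.29 RPKM in the other OMN samples, against 2.42 to 18.9 in SC (adjusted p = 0.00122). These 4 genes had separate groups and passed in every fit without 1 sample, although in replicates 1 to 4 Cyp26a1, Cyp26b1 and Dhrs3 did not (adjusted p = 0.103, 0.103 and 0.0837), nor Cyp26b1 with the replicate number as a block in the 12 samples (0.0738).

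Other members that passed were less stable. Stra8, a retinoic acid target known from germ cells, was at 12.4 RPKM in OMN 1, at 3.29 in OMN 3 and at 0 to 0.390 in the other OMN samples, while SC held 13.8 to 45.1 RPKM and SC 4 held 427 (adjusted p = 0.0314). It passed in 6 of the 12 fits without 1 sample (adjusted p from 0.0175 to 0.0801) and was lost without OMN 2, 4, 5 or 6 or SC 1 or 5. Aldh1a3, which makes retinoic acid, was the member higher in OMN, at 2.03 to 10.8 RPKM against 0.475 to 1.11 in SC (difference 1.91 ± 0.44, adjusted p = 0.0345). It passed only without OMN 2, OMN 3 or SC 4 (adjusted p from 0.0209 to 0.0909), although every OMN sample lay above every SC sample. Crabp1, a retinoic acid binding protein gene and the most abundant of the list, overlapped (48.9 to 1919 RPKM in OMN, 4.22 to 319 in SC, adjusted p = 0.43), as did Aldh1a2, the main synthetic enzyme of the trunk (adjusted p = 0.457).

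Promoter sequences were searched because several of these genes moved together. The motif was the direct repeat of the retinoic acid receptor half-site spaced by 5 bases (DR5), read on both strands of RefSeq promoters (build GRCm38.p6) from 250 bases before to 50 bases after the gene start. It was found in 32 of 32851 promoters (0.0974%). Repeats spaced by 1 and by 2 bases were also searched, were found in 73 (0.222%) and 88 (0.268%) promoters, and occurred in none of the genes of the retinoic acid list, the latter in Tinagl1 alone among genes that passed with SC higher. Of the 23 genes of the list, 18 had a promoter in the set, and 2 of these held the motif, Cyp26a1 and Rarb. Both are among the 82 genes with a promoter that passed with SC higher, where no other gene held it, and none of the 64 that passed with OMN higher or of the 6 Hox genes with a promoter did. The stretches around the matches, with the motif in capitals, lie at chr19:37697726-37697842 on the plus strand for Cyp26a1, where the motif reads on the opposite strand and ends 15 bases before the gene start, and at chr14:16575463-16575579 on the minus strand for Rarb, where it reads on the strand of the gene and ends 36 bases before the start.
Cyp26a1: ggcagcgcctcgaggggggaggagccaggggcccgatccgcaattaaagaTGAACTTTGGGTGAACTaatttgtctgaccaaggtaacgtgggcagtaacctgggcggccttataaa
Rarb: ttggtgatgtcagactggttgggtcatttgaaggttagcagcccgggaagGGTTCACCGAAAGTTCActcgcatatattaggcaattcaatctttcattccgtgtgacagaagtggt
A match is a description of the letters and not a site of binding or a cause.

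The pathways of the other patterning factors had few genes that passed. Among 24 genes of FGF signalling and its feedback, 18 lay above 0 with a median of 0.49, 7 had an unadjusted p under 0.05, and 1, Fgf15, passed. The feedback inhibitor Spry2 was the most abundant (12.1 to 364 RPKM in OMN, 9.63 to 310 in SC, adjusted p = 0.698). Etv5, a transcription factor induced by FGF, lay between 6.68 and 47.5 RPKM in OMN, while in SC 4 it reached 29.0 RPKM and elsewhere in SC at most 5.01 (adjusted p = 0.242). Of 16 hedgehog genes 0 passed in limma and 3 had an unadjusted p under 0.05, with a median of 0.06 that turned to -0.12 with equal sums, and 1 passed with SC higher without SC 4, without both and in replicates 5 and 6. The pathway's receptor and target Ptch1 lay between 19.6 and 111 RPKM in OMN and between 10.5 and 68.3 in SC (adjusted p = 0.685). Floor plate genes, which mark the ventral midline, gave 0 of 9 in limma and 0 at unadjusted p under 0.05. Foxa2, which specifies the floor plate, was at 8.28 to 41.6 RPKM in OMN and 1.39 to 47.3 in SC, and Shh, its secreted signal, at 2.42 to 58.9 and 0 to 43.6 RPKM. Both overlapped widely.

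Ventral progenitor factors gave 0 of 10 in limma (2 at unadjusted p under 0.05, median -0.70). Nkx6-1, which spans the ventral progenitors, lay between 6.54 and 82.4 RPKM in OMN and between 7.64 and 160 in SC, and Olig2, of the motor neuron progenitor domain, between 0.264 and 11.7 and between 1.16 and 45.3 RPKM. Intermediate and dorsal factors gave 0 of 19 in limma, 3 at unadjusted p under 0.05 and a median of 0.08, with 1 passing without SC 4 and without both and 3 in replicates 5 and 6, all with OMN higher. Pax3 and Pax7, which mark dorsal progenitors, did not exceed 0.321 RPKM in any of the 12 samples. Of 19 BMP pathway genes 0 passed in limma and 4 had an unadjusted p under 0.05 (median -0.04), against 1 higher in OMN and 3 higher in SC without SC 4. Of 25 Wnt genes 1 passed in each direction and 11 had an unadjusted p under 0.05 (median 0.09). Lef1, a nuclear effector of Wnt, lay between 1.18 and 3.49 RPKM in OMN and between 0 and 1.12 in SC with SC 4 the highest (adjusted p = 0.0498), and passed among the 12 fits only in that without SC 4 (adjusted p from 0.0152 to 0.116). The ligand gene Wnt7a lay between 0.131 and 0.935 RPKM in OMN and between 0.816 and 25.1 in SC (adjusted p = 0.0475), and passed only without SC 2 or SC 4 (adjusted p from 0.00641 to 0.109).

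Motor neuron genes, the programme the sort was meant to remove, gave 0 of 24 in limma, with 6 at unadjusted p under 0.05 and a median of -0.41, and 1 passing with SC higher in replicates 5 and 6 and 1 with OMN higher under median-ratio scaling. In GFP-positive cells the median of the same genes was 0.84. The difference between cultures differed between GFP-negative and GFP-positive cells for 6 of the 24 by the interaction test, which 0.320% of all genes passed. Both cultures were sorted on motor neuron reporters, so the sort bears on the whole list. The count of 6 is therefore a description and not a test of the list. Among the 6 was Isl1, shared by both motor neuron types, whose reporter was the one sorted on in OMN, so that the sort bears on its interaction directly and the value is given as a description and not as a test. It was at 0.696 to 1.87 RPKM in OMN and at 0.392 RPKM in SC 6 and 3.87 to 9.10 in the other SC samples, with an interaction of -3.47. Tbx20, Rgs4, Ebf1 and Onecut2, named after their values were seen, had interactions from -5.23 to -2.81. Phox2a, the gene carried by the OMN line, lay between 3.09 and 6.43 RPKM in OMN and between 0 and 2.42 in SC, with separate groups and adjusted p = 0.129, and its RPKM cannot separate the endogenous gene from the transgene. Chat, which makes acetylcholine, was listed at 0 in every OMN sample.

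With all samples, the list of genes shared by neurons had few that passed and a median well below 0. Of 20 pan-neuronal genes 19 lay below 0, with a median of -1.60 against -0.04 for all genes, 14 had an unadjusted p under 0.05 and the groups did not overlap in 8, but 1 passed. The summed level was 41.4 to 119 RPKM in OMN and 132 to 930 RPKM in SC, so each SC sample lay above each OMN sample. Of these genes 1 passed without SC 2, 3 without SC 4, 3 without both and 0 in replicates 1 to 4, where the median was -1.24. In replicates 5 and 6, 7 passed, all with SC higher, and the median was -2.25. With equal sums 4 passed. The median in GFP-positive cells was 0.60. The gene that passed with all samples was Nhlh2, a factor of newly born neurons, at 0 to 0.153 RPKM in OMN and 2.62 to 5.30 in SC (difference -2.35 ± 0.53, adjusted p = 0.028), lost without OMN 2, 3, 4 or 6 or SC 1, 5 or 6 (adjusted p from 0.0304 to 0.063). Gap43, a growth cone protein gene and the most abundant, lay between 2.52 and 13.1 RPKM in OMN and between 13.6 and 459 in SC with SC 5 highest, and missed the threshold (adjusted p = 0.0631). Dcx, of migrating neurons, was at most 0.293 RPKM in OMN and 1.77 to 10.97 in SC (adjusted p = 0.0636). Tubb3, a neuronal tubulin, overlapped (2.43 to 19.8 RPKM and 4.74 to 79.3, adjusted p = 0.235). Neurogenesis and Notch genes gave 0 of 19 in limma, 7 at unadjusted p under 0.05 and a median of -1.003, with 2 passing in replicates 1 to 4, both with SC higher. Hes5, a Notch target, lay between 0.609 and 37.5 RPKM in OMN and between 5.79 and 500 in SC.

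Lists of neuron subtypes other than motor neurons held 1 gene that passed. Of 30 spinal interneuron factors 1 passed (median -0.15, 7 at unadjusted p under 0.05), and their sum was 17.3 to 65.3 RPKM in OMN and 35.8 to 82.1 in SC. Prdm8, a chromatin regulator of interneurons, was at 0 to 0.611 RPKM in OMN and 0.409 to 33.7 in SC (difference -3.01 ± 0.63, adjusted p = 0.0181), with SC 5 the one SC sample inside the OMN range. Its adjusted p was 0.053 without SC 1, 0.0918 in the 12 samples alone and 0.116 with the replicate number as a block in them, and 0.00223 in replicates 1 to 4. Lhx1, of several interneuron classes, was listed at 0 in all OMN samples and reached 4.16 RPKM in SC 4 and at most 0.471 elsewhere in SC. In GFP-positive cells it was at 0 to 0.212 RPKM in OMN and 4.43 to 22.8 in SC, and the interaction was 2.55 ± 0.50 (adjusted p = 0.0214, or 0.000244 without SC 4). The paper places Lhx1 with Mnx1 among genes particular to its spinal motor neurons. The sort on Hb9-GFP therefore bears on this interaction, which does not speak for interneurons. SC 4 was also the sample with the Mnx1 level of a GFP-positive sample. Monoamine neuron genes gave 0 of 13 in limma (3 at unadjusted p under 0.05, median -0.16), and genes of glutamate, GABA and glycine transmission 0 of 9 (2 at unadjusted p under 0.05, median -0.10). Slc17a6, the vesicular glutamate transporter gene, was at 0 in OMN and at most 0.236 RPKM in SC.

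Progenitor genes were present in both cultures. Of 22 neural progenitor genes 1 passed (median -0.41, 9 at unadjusted p under 0.05), and their sum was 416 to 745 RPKM in OMN and 338 to 3189 in SC, with SC 4 the lowest sample of all. The median was 0.08 in replicates 5 and 6 and -0.745 with equal sums. In the fits without SC 2, without SC 4 and without both, 1 gene passed with OMN higher. Sox2, the general neural progenitor factor, overlapped closely (36.6 to 118 RPKM in OMN, 35.0 to 137 in SC, adjusted p = 0.938). Fabp7, a radial glia gene and the most abundant, overlapped at its low end but reached far higher in SC (6.98 to 145 RPKM in OMN and 8.85 to 2348 in SC, adjusted p = 0.507). Sox9, which starts the switch to glia, lay between 2.75 and 12.2 RPKM in OMN, at 5.97 in SC 4 and between 26.0 and 113 in the other SC samples (difference -2.37 ± 0.54, adjusted p = 0.0328). It was lost without OMN 1, 2 or 3 or SC 1, 3, 5 or 6, and its adjusted p ran from 0.000885 to 0.0862. Of 13 glial genes 2 passed, both with SC higher, and 6 had an unadjusted p under 0.05 (median -0.35). Nfib, a factor of glial onset, lay between 0.194 and 0.806 RPKM in OMN and between 0.905 and 5.33 in SC (difference -1.14 ± 0.24, adjusted p = 0.0181) and passed in every fit without 1 sample, but not in the 12 samples alone (adjusted p = 0.149), in replicates 1 to 4 (0.188), with a pseudocount of 0.1 (0.0665) or with the replicate number as a block in the 12 samples (0.199). Pdgfra, of oligodendrocyte precursors, lay between 0.296 and 1.27 RPKM in OMN, at 0 in SC 4 and between 4.36 and 21.9 elsewhere in SC (adjusted p = 0.0489), and passed in 1 of those 12 fits, that without SC 4 (adjusted p from 5.02e-05 to 0.111). The astrocyte genes Gfap and Aqp4 did not exceed 0.700 RPKM.

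Of 20 cell cycle genes 0 passed in limma and 2 had an unadjusted p under 0.05, yet 19 lay above 0, with a median of 0.66 that was 0.30 with equal sums. Their sum was 655 to 1587 RPKM in OMN and 474 to 1410 in SC, with SC 4 the highest SC sample. Mki67, a marker of dividing cells, overlapped (18.3 to 50.5 RPKM and 15.8 to 53.0, adjusted p = 0.971). Among 55 Hist1 histone genes, 2 passed with OMN higher and 53 lay above 0 (median 1.60). Some of these genes are close copies of each other, so that reads may be shared between them. Their part in the other differences was not tested.

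Genes of undifferentiated stem cells were still detected. Of 20 pluripotency genes 17 lay above 0 with a median of 1.63 and 10 had an unadjusted p under 0.05, while 2 passed, both with OMN higher. Their summed level was 821 RPKM in OMN 4 and 3393 to 10010 RPKM in the other OMN samples, 173 to 493 RPKM in SC 1, 2, 3, 5 and 6 and 6565 RPKM in SC 4. SC 4 thus lay among the OMN samples. Without SC 4, 6 passed, without SC 2, 1 did, and without both, 4. In replicates 1 to 4, 0 passed, and in replicates 5 and 6, 1 did. The most abundant was Dppa5a, an RNA-binding protein gene of stem cells, at 593 to 9806 RPKM in OMN and 73.0 to 5434 in SC (adjusted p = 0.24). Its mean over the 12 samples was 3264 RPKM, so the summed level mostly followed this gene. Tdgf1, a Nodal co-receptor gene, lay between 13.3 and 185 RPKM in OMN, at 28.5 in SC 4 and at 0 to 1.58 in the other SC samples (difference 4.00 ± 0.84, adjusted p = 0.0178), and was lost without OMN 2 (0.0534) or SC 6, in the 12 samples alone (0.0626), in replicates 1 to 4 (0.261) and with the replicate number as a block in the 12 samples (0.13). Fgf4, a stem cell growth factor, lay between 2.99 and 31.8 RPKM in OMN, at 16.2 in SC 4 and at most 0.0888 elsewhere in SC (adjusted p = 0.0389), and passed only without OMN 5, OMN 6 or SC 4 among the 12 fits without 1 sample (adjusted p from 0.000694 to 0.09). Fgf4 also missed the threshold in the 12 samples alone (adjusted p = 0.133), in replicates 1 to 4 (0.207) and with the block in the 12 samples (0.144). Nanog, a core pluripotency factor, was at 16.5 to 85.4 RPKM in OMN, at 185 in SC 4 and at 0 to 9.48 elsewhere in SC, with adjusted p = 0.252, and the 12 fits without 1 sample gave 0.0141 (without SC 4) to 0.404. Pou5f1, which encodes Oct4, lay between 1.29 and 49.1 RPKM in OMN and between 0 and 50.3 in SC (adjusted p = 0.398). The part of such cells in the other differences was not tested.

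**Figure D2:**
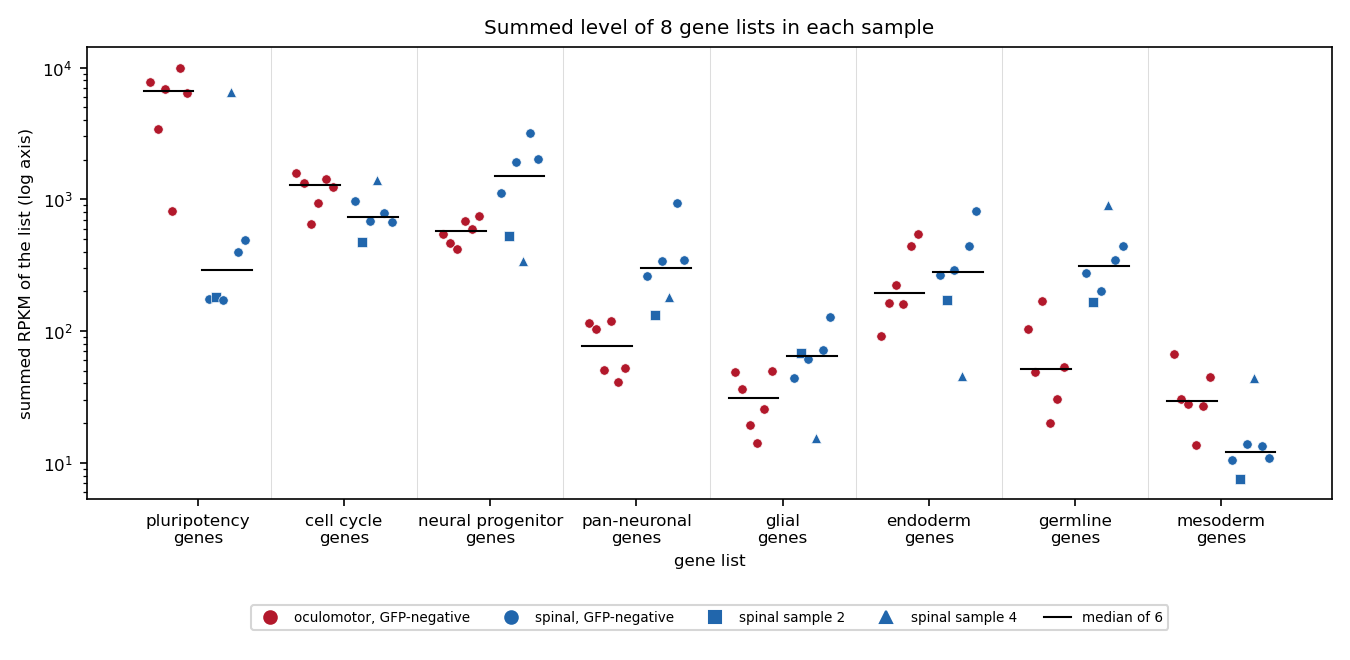
Summed RPKM of 8 gene lists in each GFP-negative sample on a log axis, with OMN in red and SC in blue, SC 2 as a square, SC 4 as a triangle and the median of 6 samples as a bar. Pan-neuronal sums are 41.4 to 119 RPKM in OMN and 132 to 930 RPKM in SC, and the pluripotency sum of SC 4, at 6565 RPKM, lies among the OMN samples. The pluripotency sum mostly follows Dppa5a.

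Endoderm genes, which mark a germ layer outside the neural lineage, were the non-neural list with most genes passing. Of 22 genes 5 passed, all with SC higher (median -0.82, 12 at unadjusted p under 0.05), 4 without SC 2, 10 without SC 4, 10 of 21 without both and 0 in replicates 1 to 4. In replicates 5 and 6, 7 of 21 passed, all with SC higher, and the median was -1.13. The summed level overlapped, at 91.3 to 542 RPKM in OMN and 45.9 to 819 in SC, and SC 4 was the lowest sample of all. The most abundant gene, the secreted inhibitor gene Spink1, overlapped too (19.6 to 409 RPKM and 0 to 286, adjusted p = 0.281). Sox17, which specifies endoderm, lay between 0 and 0.979 RPKM in OMN, at 0.394 in SC 4 and between 2.38 and 8.15 in the other SC samples (difference -1.86 ± 0.33, adjusted p = 0.0049). Gata6, an early endoderm factor, lay between 0.130 and 4.42 RPKM in OMN, at 2.65 in SC 4 and between 12.6 and 25.0 elsewhere in SC (difference -2.68 ± 0.43, adjusted p = 0.00192), and its relative Gata4 between 0.159 and 2.91, at 0.844 and between 8.62 and 19.06 RPKM (adjusted p = 0.00594). SC 4 was the sample that made the groups overlap, and these 3 genes passed in all 12 fits without 1 sample. In a fit of the 12 samples alone Sox17 and Gata4 missed the threshold (adjusted p = 0.133 and 0.112), as they did with the replicate number as a block in these samples (0.0903 and 0.123). Their difference did not pass the interaction test against GFP-positive cells (adjusted p = 0.112, 0.0984 and 0.133). Sox7 and Hnf4a, factors of extraembryonic and visceral endoderm, passed less firmly. Sox7 did so only without OMN 1, SC 3 or SC 4 (adjusted p from 0.00788 to 0.101) and Hnf4a only without SC 2, 3, 4 or 6 (adjusted p from 0.00276 to 0.0884), against 0.0428 and 0.0364 with all samples. Alb, of liver, was listed at 0 in every OMN sample and did not exceed 0.567 RPKM in SC. The part of endoderm cells in the difference was not tested.

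Mesoderm genes gave 0 of 25 in limma (5 at unadjusted p under 0.05, median -0.06), with a sum of 13.7 to 67.5 RPKM in OMN, 43.7 in SC 4 and 7.59 to 13.8 in the other SC samples. Neural crest genes gave 0 of 13 in limma (5 at unadjusted p under 0.05), and Sox10, of migrating crest, was at 0 in OMN. Epithelial genes gave 0 of 13 (1 at unadjusted p under 0.05), but 1, the keratin gene Krt19, named after its values were seen, passed with SC higher without SC 2, without SC 4, without both, in replicates 5 and 6, with median-ratio scaling and with equal sums. Among these settings crest genes gave 1 without SC 4 and mesoderm genes 1 in replicates 5 and 6. Blood and microglia genes gave 0 of 7 in limma (0 at unadjusted p under 0.05). Of 25 germline genes 1 passed, Stra8, and 7 had an unadjusted p under 0.05 (median -0.25), and the sum was 19.9 to 168 RPKM in OMN and 166 to 903 in SC. Rhox5, an X-linked homeobox gene and the most abundant, missed the threshold (8.85 to 131 RPKM in OMN, 58.7 to 367 in SC, adjusted p = 0.0956). Genes of the Zscan4 state, a passing state of stem cells, gave 0 of 16 (1 at unadjusted p under 0.05), with a sum of 103 RPKM in SC 4, 30.4 in SC 2 and at most 1.11 in OMN. Imprinted genes gave 0 of 25 (6 at unadjusted p under 0.05, median -0.29), immediate early and stress genes 0 of 21 (4 at unadjusted p under 0.05, median -0.35). Of 18 glycolysis and hypoxia genes 1 passed, the one with an unadjusted p under 0.05, Ndrg1, a stress-induced gene at 0.318 to 4.29 RPKM in OMN and 3.68 to 13.5 in SC (adjusted p = 0.0455), which passed only without OMN 1, OMN 3, SC 4 or SC 5 among the 12 fits (adjusted p from 0.0204 to 0.111).

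Several large differences lay outside the regional and lineage lists. Genes of the Y chromosome are present only in cells that carry a Y chromosome, and the sex of either line was not tested. The Y-linked genes Eif2s3y (a translation factor), Ddx3y (an RNA helicase) and Uty (a histone demethylase relative) passed with OMN higher, 3 of 5 sex-linked genes tested. Eif2s3y lay between 6.23 and 15.6 RPKM in OMN and at 0 in every SC sample but SC 4, which held 0.113 RPKM (adjusted p = 4.83e-08), Ddx3y between 1.91 and 5.84 and at most 0.136 RPKM in SC (adjusted p = 9.72e-06). Uty lay between 0.296 and 0.844 RPKM in OMN and was listed at 0 in SC (adjusted p = 0.00476), and missed the threshold in replicates 1 to 4 (0.118) and with the replicate number as a block in the 12 samples (0.0854). Rprl3, a copy of the RNA component of RNase P, lay between 20.002 and 106 RPKM in OMN and at 0 in SC except 0.486 RPKM in SC 6 (difference 5.12 ± 0.44, adjusted p = 2.43e-07). The growth factor gene Ptn lay between 23.3 and 52.4 RPKM in OMN and between 0 and 7.31 in SC (difference 4.08 ± 0.69, adjusted p = 0.0029).

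The other genes with the largest differences were Gstt2 (a glutathione transferase), Nudt14 (a sugar nucleotide hydrolase), Fgfbp1 (an FGF carrier), Crip1 (a LIM protein), Mup6 (a urinary protein), Prtg (a cell surface protein of the early neural tube), Car4 (a carbonic anhydrase) and Adssl1 (an enzyme of AMP synthesis), all higher in OMN. Nudt14 lay between 140 and 173 RPKM in OMN and between 6.70 and 47.6 in SC (difference 2.79 ± 0.40, adjusted p = 0.000536). Gstt2, Nudt14, Fgfbp1, Crip1 and Mup6 passed in each of the 12 fits without 1 sample, but Fgfbp1, Crip1 and Mup6 not in replicates 1 to 4 (adjusted p = 0.0714, 0.0714 and 0.111), nor Fgfbp1 and Mup6 with the replicate number as a block in the 12 samples (0.0885 and 0.0802). Prtg was lost without OMN 4 (adjusted p = 0.0521), in the 12 samples alone (0.0616), with the block in them (0.126) and in replicates 1 to 4 (0.141). Car4 passed only without SC 3 or SC 4 (adjusted p from 0.0343 to 0.124), and Adssl1 only without OMN 3, OMN 5, SC 1 or SC 4 (adjusted p from 0.0135 to 0.09). Erdr1 and Gm21887, which are near-identical copies, also passed (adjusted p = 0.0475 and 0.0447), and which copy the reads came from is uncertain. Gm21887 passed only without SC 3 or SC 5 (adjusted p from 0.0181 to 0.0958) and Erdr1 only without SC 3 or SC 4 (from 0.0191 to 0.113), and without both SC 2 and SC 4 the difference of Gm21887 was 2.87 instead of 4.58 (adjusted p = 0.164). On the SC side Tinagl1, a basement membrane protein gene (0.333 to 4.57 RPKM in OMN, 12.3 to 74.4 in SC, adjusted p = 0.0049), and Pou3f3, a neural POU factor (0.0316 to 2.28 and 3.18 to 19.98 RPKM, adjusted p = 0.00267), passed in every such fit but not in replicates 1 to 4 (0.259 and 0.118). Sncg, which encodes a synuclein (0 to 2.02 and 12.98 to 310 RPKM, adjusted p = 0.0364), passed only without OMN 1, SC 2 or SC 4, with adjusted p from 0.0225 to 0.0835. Trh, which encodes a hypothalamic releasing hormone and was chosen after its values were seen, was at 8.09 to 305 RPKM in OMN, at 8.16 in SC 4 and at 0 to 0.427 elsewhere in SC (difference 5.27 ± 0.72, adjusted p = 0.00036).

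Position showed a regional bias that was likewise singled out after the values were seen. Of the 91 genes that passed with OMN higher, 15 lay on chromosome 12, where 672 genes were tested, and 14 of these lay from 80 Mb on, among 336 tested, where 1 passed with SC higher. The count of 14 was 10 without SC 2, 20 without SC 4, 15 without both, 3 in replicates 1 to 4 and 5 in replicates 5 and 6, and it depended on the scaling, with 22 for median-ratio scaling and 6 for equal sums. In that stretch 102 of 112 genes with a mean above 5 RPKM lay above 0 with a median of 0.90, against 0.17 on the rest of the chromosome and -0.07 to 0.22 on each of the other autosomes and the X taken whole. The Y, with 3 such genes, had 1.65. Among 10 Mb steps with more than 3 such genes, 1 elsewhere was higher than each on chromosome 12, chromosome 13 from 20 to 30 Mb, which holds Hist1 genes, at 1.46 over 64 genes, with 0.01 in GFP-positive cells. The step furthest from 0 lay the other way, chromosome 9 from 0 to 10 Mb, at -1.82 over 16 genes and -1.18 in GFP-positive cells. For the stretch on chromosome 12 the median was 0.72 in GFP-positive cells, where 17 genes of the stretch passed with OMN higher (0.866% of all genes did). It was 0.78 without SC 2, 0.98 without SC 4, 0.95 in replicates 1 to 4, 0.83 in replicates 5 and 6 and 0.57 with equal sums, a scaling that gave -0.25 for all genes above 5 RPKM against 0.10 as deposited. Relative to the other chromosomes the stretch was shifted by 0.77 to 0.92 in the 6 OMN samples and by -0.21 to 0.25 in the 6 SC samples, so the groups did not overlap. Nudt14 (chr12:112934291-112942124), Crip1, Adssl1 and the translation factor gene Eif5 (145 to 185 RPKM in OMN, 74.0 to 96.6 in SC, adjusted p = 0.0151, or 0.123 in the 12 samples alone, 0.26 in replicates 1 to 4 and 0.157 with the replicate number as a block) lie there. The number of copies of the stretch in either line was not measured.

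**Figure D3:**
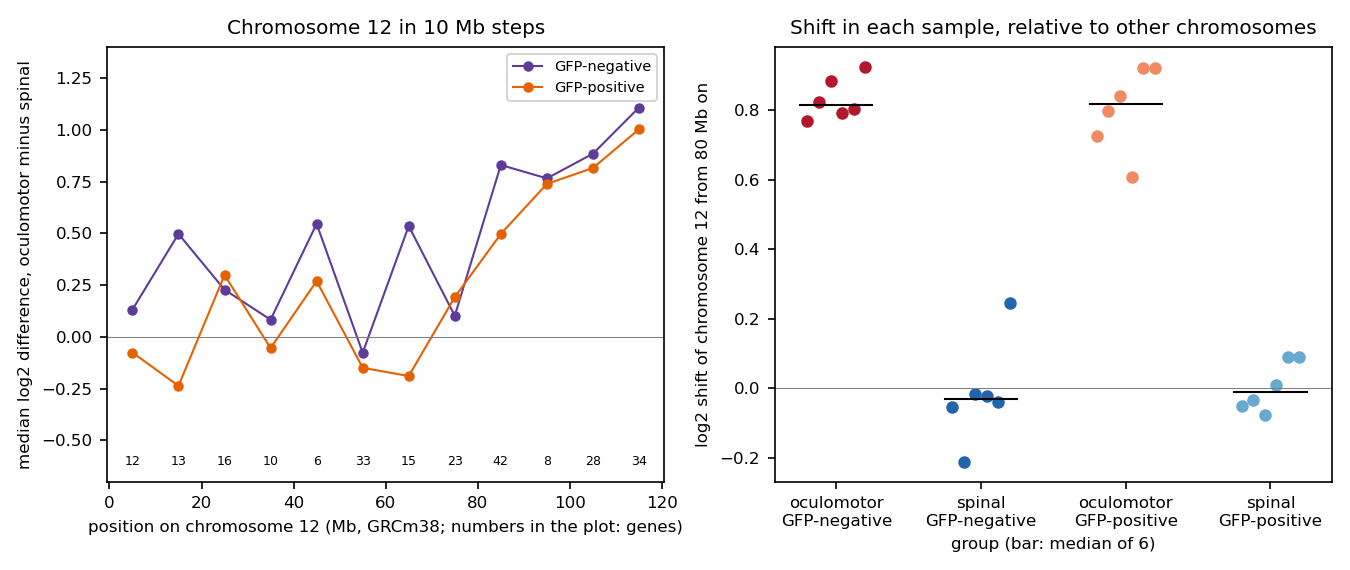
Left, median log2 difference (OMN minus SC) of genes above 5 RPKM in 10 Mb steps of chromosome 12 for GFP-negative and GFP-positive cells. Right, shift of the genes from 80 Mb on relative to the other chromosomes in each sample, at 0.77 to 0.92 in OMN and -0.21 to 0.25 in SC GFP-negative samples.

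The number of genes detected overlapped between the cultures. Genes above 1 RPKM numbered 9365 to 11190 in OMN and 9545 to 12172 in SC, a difference in means of -334 (exact two-sided permutation test, p = 0.483), -508.9 without SC 2, -76.3 without SC 4 and -230.2 without both. In replicates 1 to 4 the difference was -255.5. With equal sums after leaving out the 3 Gm models and mitochondrial genes it was -1070 (exact p = 0.0693), the value furthest from 0 of the alternatives tried.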

How the data were processed

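Values were used as deposited by the authors, in RPKM, from poly(A) SMART-seq2 libraries aligned with HISAT2 2.0.3, the annotation not being given in the sources used here. No counts were used, and reads estimated from the RPKM of single-transcript genes ran from 752529 to 7095498 in the 12 samples. All 24 samples in 4 groups were fitted on log2(RPKM + 1) with limma 3.58.1 (trend; R 4.3.3) for genes above 0 in at least 2 samples, with Benjamini-Hochberg adjustment over all genes and a threshold of 0.05. The interaction was the difference between cultures in GFP-negative minus that in GFP-positive samples. It treated the 24 samples as independent, although both fractions of a culture may come from the same sort. Numbers of detected genes were compared by an exact two-sided permutation test over 924 assignments (scipy 1.17.1, smallest p 0.00216). Positions were taken from GENCODE M21. Named genes were the 15 largest changes in each direction that passed without overlap of the groups (gene models without a name only counted), each list gene that passed, a fixed set of regional and lineage genes, and at most 4 members per list by abundance or as cell type markers; others are said to be chosen after their values were seen. Members and lists were chosen with earlier results of these data known. Alternatives were another pseudocount, other filters, the 12 samples alone, quality weights, other scalings, replicate blocks and subsets of samples. Tests of replicates 5 and 6 were used for counts only. The spread of each gene was estimated from all 4 groups together, GFP-positive samples included. Replicates correlated at 0.781 to 0.981 in OMN and at 0.648 to 0.881 in SC GFP-negative samples. The labels do not state separate cultures, so p-values measure the spread between the samples fitted, which may be technical. Some items that the rule names are not reported here.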

Additional observations from a re-analysis of the deposited data

Results flagged for a closer look

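Single samples lay far from the other 5 of their group for 28 values among 191 groups of 6, where chance gives about 1 in 20 groups. Of these, 13 were in SC 4. SC 4 was high in Stra8 (427 RPKM), Etv5 (29.0), Tdgf1 (28.5), Fgf4 (16.2), Lhx1 (4.16), En1 (1.79), Otx2 (0.9), Pax5 (0.691), Gad1 (0.524), Pax2 (0.391) and Eif2s3y (0.113), and low in Gata6 (2.65) and Gata4 (0.844). OMN 1 was high in 6: Hoxa5 (9.73 RPKM), Spry4 (6.31), Hoxb7 (0.669), En2 (0.487), Hoxc5 (0.223) and Pax8 (0.114). In SC 6, Rprl3 (0.486 RPKM) was high and Isl1 (0.392) was low. In SC 2, Fgf8 (0.875 RPKM) and Pax3 (0.286) were high. OMN 3 was high in Hoxb4 (0.408 RPKM) and Pax3 (0.282), OMN 5 in Pax7 (0.248) and OMN 6 in Hoxb6 (0.0820), and OMN 4 was low in Dhrs3 (0 RPKM). For the high values of Eif2s3y, Pax2, Hoxb7, Hoxc5, Pax8, Rprl3, Pax7 and Hoxb6 the other 5 samples were at 0. Any level above 0 is then far from the rest, so the chance rate does not apply to these genes.

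The difference between the cultures was not the same in GFP-negative and GFP-positive cells for 4 of the named regional or strongly changed genes by the interaction test in limma. On the log2 scale, GFP-negative minus GFP-positive, it was 3.86 for Otx2 (adjusted p = 5.01e-05), 3.46 for Mup6 (0.0255), 3.23 for Fgfbp1 (0.039) and 2.55 for Lhx1 (0.0214). It was -3.47 for Isl1, whose reporter was sorted on in OMN, so that this value is a description and not a test. The paper places Lhx1 among genes particular to its spinal motor neurons, so the sort on Hb9-GFP bears on the Lhx1 value too.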

How the results depend on the processing

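The 213 genes that passed became 76 in a fit of the 12 samples alone, 650 with quality weights, 39 in replicates 1 to 4 and 421 without SC 2 and SC 4. Leaving out 1 sample gave 115 to 444. The interaction count of 71 became 108 with median-ratio scaling, 240 with quality weights, 10 in replicates 1 to 4 and 263 without SC 2 and SC 4, and 43 (without SC 1) to 234 (without SC 4) when 1 sample was left out. Fewer samples were fitted in these subsets, and the cause of the other changes was not tested.

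With the replicate number as a block the count was 563 over 24 samples and 40 over the 12, and the interaction count 133. Samples of a number share only that number in the labels. Between OMN and SC GFP-negative samples, 3 of 12 samples correlated best with their own number. GFP-positive and GFP-negative samples of a number were not compared in this way. The 3 gene models held 68.81% of the sum in SC GFP-negative sample 2 and 17.79% in SC GFP-positive sample 2. Mitochondrial genes held 17.27% and 22.63% in the SC samples of number 4. Pairing of the fractions within a culture was not modelled. Correlations of same-numbered OMN and SC samples, each relative to its group, ran from -0.048 to 0.612, and 4 of 6 were above 0.1. Across cultures, replicates 5 and 6 correlated with each other at 0.516 to 0.644, and with replicates 3 and 4 at -0.527 to -0.239.

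The difference in detected genes kept its sign and missed the threshold in every alternative tried, from -601.7 to -76.3 when 1 sample was left out (exact permutation p from 0.195 to 0.831) and -1070 with equal sums (exact p = 0.0693). Of 1284 pairs of a named gene that passed and an alternative with a test, 980 gave the same call, 304 missed the threshold in the same direction and 0 reversed. With other filters, the 12 samples alone or a replicate block the difference is the same by construction and could not reverse. Fits without 1 sample share most samples with the main fit. The genes that passed in all of them were 12, among them Otx2, Hoxb5, Hoxb6, Hoxd3 and Rarb.

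Depth limits low values: with an estimated 752529 reads in the shallowest sample, a level of 0 does not show absence. Sums in RPKM depend on the other RNA of a sample, as in SC 2, where 68.81% of the sum lay in 3 gene models.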
